A study of Mus musculus with 6 samples.

Results

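Small nuclear RNA genes were described in Melan-a cells, a pigmented mouse melanocyte line, that received either siDicer, an siRNA that targets Dicer, or the control siRNA siScr. The members were drawn from genes that the RefSeq mouse gene table types as snRNA and that had a row of their own among the values used here. These values covered chromosomes 1 to 4 only, which hold 277 of the 1004 snRNA genes of RefSeq. All such genes were members whose mean log2 signal over the 6 arrays was at or above the 30th percentile of all named genes, which lay at log2 4.15. Of 245 snRNA genes with a row, 126 met this rule, out of 5362 genes of the series that did. Some of them had identical values on all 6 arrays, so the 126 genes gave 108 distinct rows, and counts below are of distinct rows unless genes are named as the unit. The mean signal chose the members, so their levels are given as a description only, whereas the difference between siDicer and siScr played no part in the rule.

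Both groups were of the C57BL/6 strain and female, were grown with 200 nM of the phorbol ester TPA, and differed in the siRNA alone per the labels. Each group had 3 arrays, from passages 47, 54 and 56, with 1 array per group and passage, labelled as 48 h after transfection, with an RNA integrity number of 10.0 in all 6, and the design text calls them biological replicates. The treatment text instead places lysis 24 h after a medium change that followed transfection by 6 h, so the time is stated in more than 1 way. The transfected line is a single immortalised line, and the targeted transcript was not analysed here, so no value in these data checks the knockdown. Of the melanocyte markers, Tyrp1 (mean log2 12.83), Slc24a5 (10.72), Pax3 (10.54) and Hps3 (8.08) were all above the level threshold. Of the markers of other cell types, 1 of 4 leukocyte genes (Fcer1g at 5.12), 1 of 4 keratinocyte genes (Lor at 5.60) and 1 of 3 endothelial genes (Tie1 at 5.44) were above it, and the leukocyte gene Ptprc was at 2.84. Their summed signals in siDicer and siScr were 6.04 to 6.08 and 5.98 to 6.16 for leukocyte, 6.45 to 6.50 and 6.38 to 6.56 for keratinocyte, and 6.14 to 6.21 and 6.16 to 6.27 for endothelial genes. Of the fibroblast markers, 5 of 5 with a row were above the threshold, led by Fn1, and their summed signal was log2 10.84 to 11.14 in siDicer and 10.47 to 10.95 in siScr. The part of these markers in the results below was not tested. Array medians ranged from log2 4.63 to 4.68.

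Small nuclear RNAs are the RNA cores of the spliceosome. U1 pairs with the start of an intron, U2 with the branch point, and U4, U5 and U6 join as a tri-snRNP before catalysis, while U11 and U12 take over the first steps for the rare minor introns. RNA polymerase II makes most of them and RNA polymerase III makes U6. Their genes are scattered through the mouse genome in many near-identical copies, a large share of which are thought to be inactive, so probes for a given copy can also read RNA from others. The RNAs are short and lack a poly(A) tail. No sequence of these genes was used here.

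RefSeq gives a U name to 4 of the 126 member genes, Rnu11, Rnu1b1, Rnu1b2 and Rnu1b6, and a predicted-gene symbol to the other 122. The rest were therefore grouped by the length of the RefSeq gene, set beside the lengths of named genes in the same table. Of the members, 66 genes (50 distinct rows) were 107 bases long, the length of Rnu6. A further 17 genes (15 rows) were 164 to 166 bases, as are Rnu1a1, Rnu1b1 and Rnu1b6, and 4 genes were 116 bases, as is Rnu5g. Another 4 genes were 191 bases long, which no named gene in the table matched, the nearest being Rnu2-10 at 187 bases. Rnu11 has 108 bases in this table, and 34 genes had other lengths. Length is a description and does not settle which snRNA a copy encodes. The rule left out 119 snRNA genes as dim, and 91 of those belonged to the other lengths, 25 to the length of Rnu6 and 3 to the lengths of the Rnu1 genes.

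**Figure D1:**
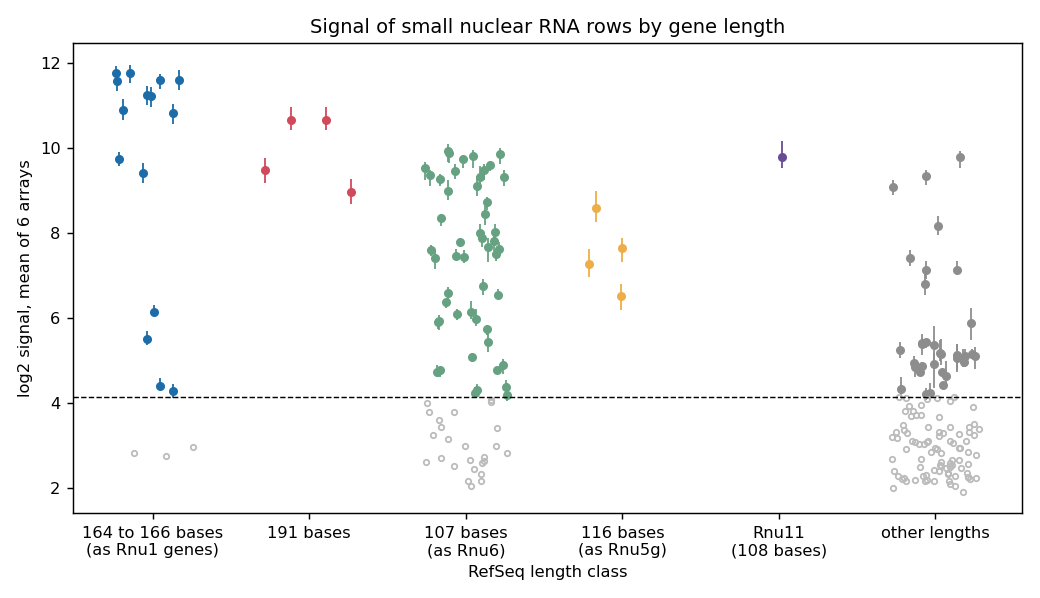
Mean log2 signal over 6 arrays (y axis) of each small nuclear RNA row by RefSeq length class (x axis). Filled points are the 108 distinct member rows, with a line from the lowest to the highest of the 6 arrays. Open grey points are the 119 genes below the dashed threshold at 4.15. All 4 rows of 191 bases and Rnu11 lie above 8, while rows of the other classes spread widely.

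The brightest rows were of the U1 lengths. Gm25189 (164 bases, chromosome 2) had a mean signal of 11.76, in the 99.5th percentile of named genes, and Gm23686 (164 bases, chromosome 3) was also at 11.76. The named gene Rnu1b6 shared its values with Gm24830 at 11.57, Rnu1b1 was at 11.22 and Rnu1b2 at 6.15. Probes differ in brightness, so these levels do not rank the RNAs by abundance. Rows of 191 bases lay between 8.96 and 10.67, rows of 116 bases between 6.51 and 8.59, and Rnu11 at 9.79. Rows of 107 bases ranged from 4.18 to 9.94 with a median of 7.61, and rows of other lengths had a median of 5.14. Just inside the threshold were Gm24382, Gm26446 and Gm23941 at 4.24, 4.22 and 4.18, and just outside it Gm23354, Gm24457 and Gm25270 at 4.15, 4.14 and 4.12.

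Many member rows do not report on a single copy. A set of 16 genes of 107 bases, spread over chromosomes 1 to 4 and with Gm22092 among them, had exactly the same value on every array: 10.09, 9.90 and 9.98 in siDicer and 9.98, 9.67 and 10.02 in siScr at passages 47, 54 and 56. The pairs Gm22614 with Gm25890, Gm24830 with Rnu1b6, and Gm22352 with Gm24584 were also identical. Such a row gives a level for the set and says nothing of any single gene in it. Rows that differ slightly can still share probes, so member rows are not independent measurements.

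Signal of the small nuclear RNA rows varied between arrays in a shared way. On each array the deviation of a row from its own mean over 6 arrays was taken, and the median over the 108 rows was 0.13, -0.044 and 0.075 in siDicer and 0.016, -0.18 and -0.0075 in siScr at passages 47, 54 and 56. The siScr array of passage 54 held the lowest value for 75 rows (69.4%), and for 42 of the 50 rows of 107 bases. Over all tested genes this array was lowest for 22.0%, and the median deviations of the 6 arrays lay between -0.011 and 0.010. The siDicer array of passage 54 was also the lowest of its group by this median.

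**Figure D2:**
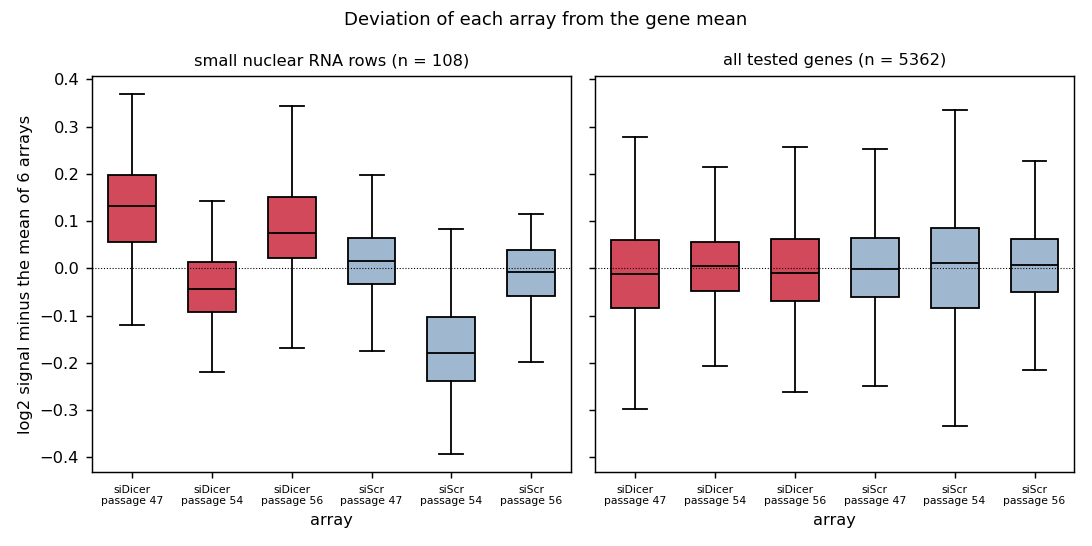
Deviation of the log2 signal on each array from the gene's mean over 6 arrays (y axis), for the 108 small nuclear RNA rows (left) and all 5362 tested genes (right). Boxes span the quartiles with the median as a line and whiskers to 1.5 times the box height, without outliers, red for siDicer and blue for siScr. The snRNA medians run from -0.18 in siScr at passage 54 to 0.13 in siDicer at passage 47, while those of all genes stay near 0.

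Comparing siDicer with siScr, the small nuclear RNA rows were mostly a little higher in siDicer. The median difference over the 108 rows was 0.10 on the log2 scale, with quartiles of 0.044 and 0.15, and 93 rows (86.1%) had a positive difference. In whole-culture RNA, a change in the number of cells that make an RNA and a change in RNA per cell cannot be told apart. Over all tested genes the median was -0.0092 and 45.5% were positive. No single row passed the threshold without a block: 0 of 108 had an adjusted p under 0.05 (limma, Benjamini-Hochberg over 5362 genes), against 0.0186% of all tested genes. At an unadjusted p under 0.05 by limma 11 rows were higher and 0 lower, against 4.61% and 3.92% of all tested genes. The groups did not overlap in 14 rows that were higher, against 6.68% of all tested genes, and in 1 that was lower, against 7.81%. These counts rest in part on 1 array: without the siScr array of passage 54 the median difference was 0.042 and 75 rows were higher.

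**Figure D3:**
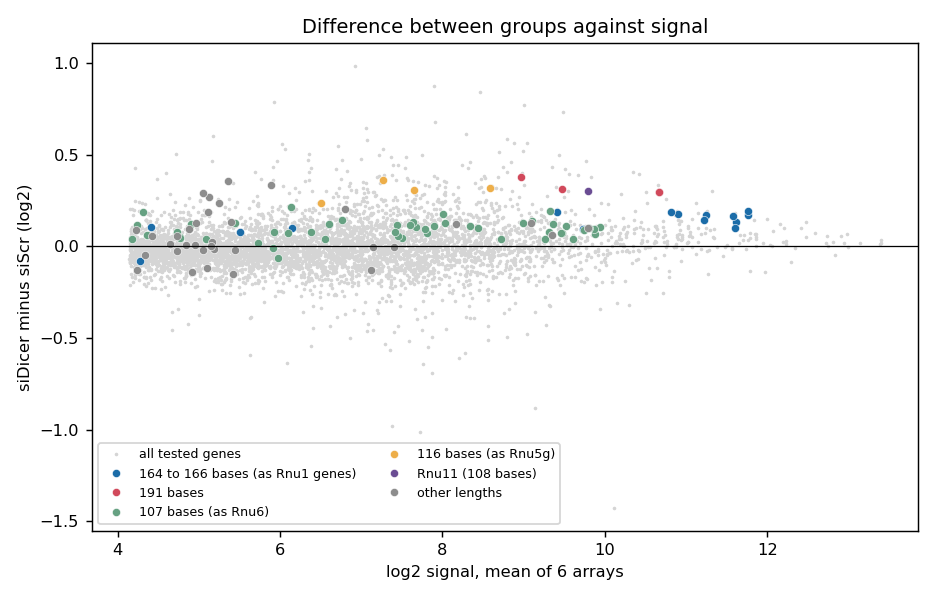
Difference between siDicer and siScr in log2 signal (y axis) against the mean log2 signal of 6 arrays (x axis), for all 5362 tested genes in grey and the 108 small nuclear RNA rows coloured by length class. The snRNA differences run from -0.15 to 0.38, and the points of 191 bases, 116 bases and Rnu11 lie at 0.24 or more.

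Within the passages the median difference was 0.11 at passage 47, 0.13 at passage 54 and 0.082 at passage 56, and 85, 90 and 82 rows were higher. Of the 108 rows, 56 were higher at all 3 passages, against 16.1% of all tested genes, 2 were lower at all 3, against 20% of them, and 50 had mixed signs. Within a passage there is 1 array per group, so these differences carry no error of their own. Since the replicate numbers stand for shared passages, the fit was also run with passage as a block. It called 1 row, Gm25360, against 1.73% of all tested genes (1.14% higher and 0.597% lower). At an unadjusted p under 0.05 by limma it had 24 rows higher, against 7.67%, and 0 lower, against 329 of the 5362 tested genes.

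The rows of 191 bases were higher in siDicer at each passage. Their 4 genes lie side by side on chromosome 1 between Mreg and Pecr by RefSeq order, with the long noncoding RNA gene D230017M19Rik spanning Gm24497 and Gm25939, and they may be read by shared probes. Gm25360 had log2 signals of 9.27, 8.98 and 9.20 in siDicer and 8.80, 8.69 and 8.83 in siScr at passages 47, 54 and 56. Every siDicer value was above every siScr value. The means were 9.15 ± 0.15 and 8.77 ± 0.074 (SD, n = 3), a difference of 0.38 ± 0.091 (SE) or 1.30-fold, with an adjusted p of 0.239 (limma). With passage as a block Gm25360 rose by 0.38 ± 0.067 (SE, limma, adjusted p = 0.0451). It also passed in the blocked fit without passage 56 (0.38, limma, adjusted p = 0.0437). More genes of the series passed in that fit than in any other that was run. Without passage 47 the blocked difference was 0.33 and without passage 54 it was 0.42, and neither passed (limma, adjusted p = 0.258 and 0.137). Each of these 3 fits has 4 arrays, so the call depended on which passage was left out.

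Its neighbours followed the same pattern over the arrays. Gm23472 was at 10.96, 10.64 and 10.84 in siDicer and 10.58, 10.42 and 10.56 in siScr, a difference of 0.30 ± 0.094 (SE, limma, adjusted p = 0.399). Gm24497 was at 10.97, 10.65 and 10.84 in siDicer and 10.58, 10.42 and 10.56 in siScr, nearly the values of Gm23472, a difference of 0.30 ± 0.095 (SE, limma, adjusted p = 0.399). Gm25939 was at 9.75, 9.45 and 9.68 in siDicer and 9.36, 9.19 and 9.40 in siScr, a difference of 0.31 ± 0.099 (SE, limma, adjusted p = 0.401). In all 4 rows the groups did not overlap, against 6.68% of all tested genes that were higher without overlap. As the 4 rows may share probes, they do not count as 4 separate observations. In all 4 siDicer at passage 47 was highest and siScr at passage 54 lowest. The differences of the 4 rows lay between 0.38 and 0.47 at passage 47, between 0.23 and 0.29 at passage 54 and between 0.28 and 0.37 at passage 56. None of the flanking genes passed: Mreg, a melanosome transport gene, differed by 0.11 ± 0.12, Pecr, a peroxisomal reductase, by -0.074 ± 0.063 and D230017M19Rik by -0.041 ± 0.058 (SE, limma, adjusted p = 0.875, 0.823 and 0.914).

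Rows of 116 bases, the length of Rnu5g, had differences of 0.24 to 0.36. U5 RNA holds the exon ends in place during splicing. Of the 4 genes 3 lie next to each other on chromosome 4, between Kif2c and Armh1. Gm25099 was at 7.43, 7.28 and 7.63 in siDicer and 7.24, 6.97 and 7.03 in siScr at passages 47, 54 and 56, without overlap, a difference of 0.36 ± 0.11 (SE, limma, adjusted p = 0.372). Gm23143 was at 7.88, 7.72 and 7.81 in siDicer and 7.65, 7.32 and 7.53 in siScr, also without overlap, a difference of 0.30 ± 0.096 (SE, limma, adjusted p = 0.395, and 0.0764 with passage as a block). Gm23287 was at 8.68, 8.58 and 8.98 in siDicer and 8.68, 8.26 and 8.35 in siScr, a difference of 0.32 ± 0.14 (SE, limma, adjusted p = 0.583). The groups overlapped there, and the passage 47 arrays were level.

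The fourth, Gm22265, lies within the bounds of Hhat on chromosome 1 and differed by 0.24 ± 0.15 (SE, limma, adjusted p = 0.725). In contrast to the rows of 191 bases, 3 of these 4 rows were highest in siDicer at passage 56. Their median difference was 0.10 at passage 47, 0.32 at passage 54 and 0.54 at passage 56, an order of passages not tested against that of other rows. The genes beside the chromosome 4 group, the mitotic kinesin gene Kif2c and Armh1, differed by 0.034 ± 0.12 and -0.063 ± 0.054 (SE, limma, adjusted p = 0.969 and 0.823).

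Rnu11 encodes U11, which recognises the start of minor introns and was the member of the minor spliceosome with a U name. Its log2 signal was 10.16, 9.82 and 9.84 in siDicer and 9.54, 9.61 and 9.76 in siScr at passages 47, 54 and 56. Every siDicer value was above every siScr value, but the lowest siDicer and highest siScr values were 9.82 and 9.76. The means were 9.94 ± 0.19 and 9.64 ± 0.11 (SD, n = 3), a difference of 0.30 ± 0.11 (SE, limma, adjusted p = 0.456, and 0.267 with passage as a block). The difference was 0.62 at passage 47, 0.21 at passage 54 and 0.081 at passage 56.

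Rows of the U1 lengths differed by less. Of 15 rows 14 were higher, with a median difference of 0.14 and a range of -0.077 to 0.19. The groups did not overlap in 3 rows that were higher, against 6.68% of all tested genes. Without the block 0 rows had an unadjusted p under 0.05 by limma, against 4.61% of all tested genes higher and 3.92% lower. With passage as a block 6 of the 15 rows were higher at that p, against 7.67%. In the same fit 0 were lower, against 329 of the 5362 tested genes. Gm23686 was at 11.96, 11.79 and 11.82 in siDicer and 11.76, 11.52 and 11.72 in siScr at passages 47, 54 and 56. The groups did not overlap, and the difference was 0.19 ± 0.084 (SE, limma, adjusted p = 0.586). Gm25189 differed by 0.17 ± 0.080 and Gm26110, within the bounds of Fcgr4, by 0.19 ± 0.089 (SE, limma, adjusted p = 0.637 and 0.641), both also without overlap. The other bright rows, Gm22614, Gm22042, Gm23511 and Gm23330, differed by 0.13, 0.10, 0.17 and 0.18, with adjusted p of 0.680 to 0.823 (limma). Rnu1b1 was at 11.43, 11.19 and 11.23 in siDicer and 11.23, 10.96 and 11.24 in siScr, where the groups overlapped, a difference of 0.14 ± 0.10 (SE, limma, adjusted p = 0.762). Rnu1b6 with Gm24830 differed by 0.16 ± 0.094 and Rnu1b2 by 0.10 ± 0.074 (SE, limma, adjusted p = 0.70 and 0.77).

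Passages differed within the U1 lengths. At passage 54, 15 of 15 rows were higher in siDicer, and at passage 47 13 of 15, while at passage 56 it was 8 of 15. The split at passage 56 followed the length, a pattern picked out after the values were seen. Of the rows of 164 bases, the length of Rnu1a1, 7 of 7 were higher at passage 56, by 0.055 to 0.25. Of those of 165 or 166 bases, the lengths of the Rnu1b genes, 1 of 8 was higher, and the range was -0.19 to 0.070. Mouse U1 genes are known to come in a and b forms. Rows within each length may share probes, and the split was not tested.

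**Figure D4:**
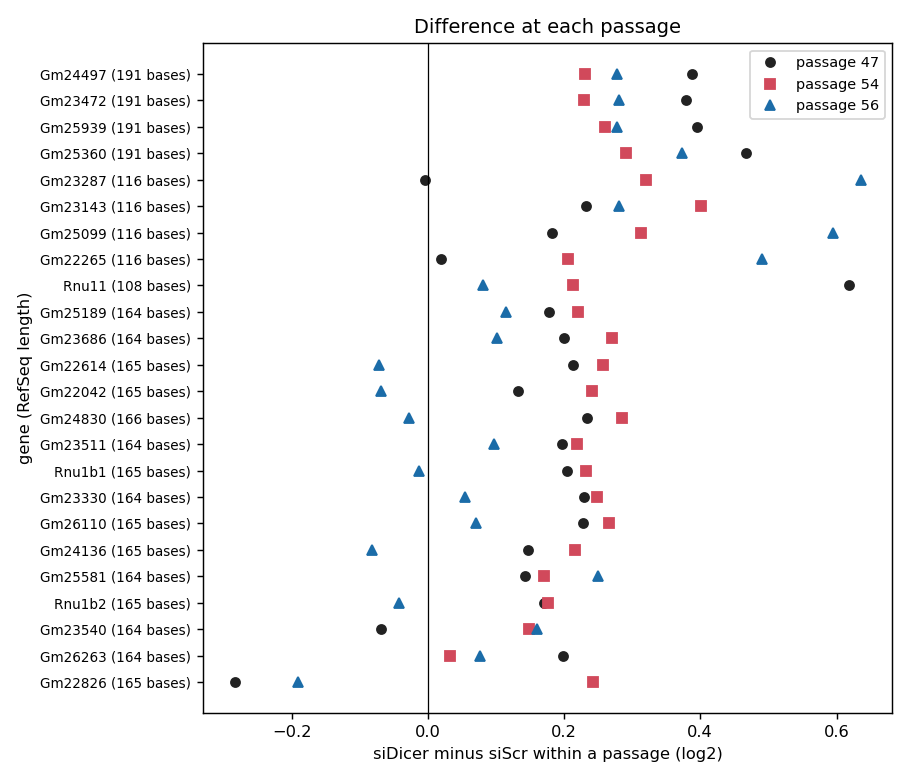
Difference between siDicer and siScr in log2 signal within each passage (x axis) for 24 small nuclear RNA rows (y axis, gene with its RefSeq length), each point being 1 siDicer array against 1 siScr array. Rows of 191 bases are at 0.23 or more at every passage. The row of Rnu11 is farthest from 0 at passage 47, and most rows of 165 or 166 bases are below 0 at passage 56.

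Rows of 107 bases, the length of the U6 RNA that forms the catalytic centre with U2, made up the largest class and differed least among the named lengths. Of 50 rows 48 were higher, with a median difference of 0.091 and a range of -0.066 to 0.22. The row shared by 16 genes differed by 0.11 ± 0.11 (SE, limma, adjusted p = 0.853), and without the siScr array of passage 54 the value was -0.0053. The groups did not overlap in 2 of the 50 rows, Gm23452 and Gm24382, a smaller share than the 6.68% of all tested genes. Without the block 1 row had an unadjusted p under 0.05 by limma, also a smaller share than the 4.61% of all tested genes. That row was Gm23452 (0.19 ± 0.062, SE, limma, adjusted p = 0.427). Gm23452 and Gm24382 both lay close to the level threshold, with mean signals of 4.32 and 4.24. On other measures the class was not below all tested genes. Of the 50 rows, 30 were higher at all 3 passages, against 16.1% of all tested genes. With passage as a block 4 were higher at an unadjusted p under 0.05 by limma, against 7.67%. The largest difference of the class was 0.22 for Gm26166, where the arrays of passage 54 were level at 5.97 in siDicer and 5.98 in siScr.

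The rows of other lengths were dimmer and went in both directions, 22 higher and 12 lower, with a median of 0.039. Gm25541 (126 bases, chromosome 2) had the largest difference, with signals of 5.80, 5.39 and 5.41 in siDicer and 5.18, 4.96 and 5.38 in siScr at passages 47, 54 and 56. The groups nearly touched, at 5.39 in siDicer and 5.38 in siScr, and the difference was 0.36 ± 0.14 (SE, limma, adjusted p = 0.528). Gm25703 (151 bases, chromosome 2) was more even, at 5.37, 5.32 and 5.43 against 5.15, 5.19 and 5.05, a difference of 0.24 ± 0.062 (SE, limma, adjusted p = 0.268) without overlap. Gm22935, which lies within the bounds of Fdps, a gene of cholesterol synthesis, was at 6.06, 5.87 and 6.24 against 5.47, 5.55 and 6.13. The groups overlapped there, and its difference of 0.34 ± 0.17 (SE, limma, adjusted p = 0.663) shrank from 0.58 at passage 47 to 0.10 at passage 56.

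Among the rows that were lower, Gm22245 had the largest difference at -0.15 ± 0.075 (SE, limma, adjusted p = 0.662). Its signals were 5.31, 5.39 and 5.32 in siDicer and 5.45, 5.40 and 5.63 in siScr, which was the 1 row lower without overlap. Gm22043 followed at -0.14 ± 0.20 (SE, limma, adjusted p = 0.914), a value set by 1 array: siDicer was at 4.36 at passage 47 and at 5.16 and 5.01 at passages 54 and 56, and without that array the difference was 0.10. Gm23850, Gm24448 and Gm25147 were at -0.13, -0.13 and -0.12, with adjusted p of 0.778 to 0.805 (limma). Below the level threshold, 58 of the 119 dim snRNA genes were higher and 61 lower, with a median difference of -0.0012. Tested without a level filter, 3 of them were higher and 3 lower at an unadjusted p under 0.05 by limma, against 3.94% and 3.34% of all genes in that fit, and 0 had an adjusted p under 0.05.

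Position in the genome was described from RefSeq gene bounds, without regard to strand. Of the 126 member genes, 55 lay within a protein-coding gene, 9 within a long noncoding RNA gene and 62 in neither. A row shared by several genes was placed by the first of them in alphabetical order. The rows within coding genes had a median difference of 0.079, with 38 of 49 higher. Those within long noncoding RNA genes had a median of 0.12, with 6 of 7 higher, and those in neither kind 0.11, with 49 of 52 higher. The median signals of these 3 sets were 5.98, 5.44 and 7.85, and the part of signal level in these differences was not tested. For 36 pairs of a member with its own row and a tested coding host, the median difference was 0.079 for the members and -0.022 for the hosts. Counted separately, the members were higher in siDicer than in siScr in 28 of the 36 pairs and the hosts in 16. Member and host had the same sign in 20 pairs.

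Genes that build or use small nuclear ribonucleoproteins showed no call. Of 140 listed genes in 7 lists, 33 had a row among the values used here, which covered chromosomes 1 to 4 only, all above the level threshold. They had 16 higher and 17 lower with a median difference of -0.014. By limma 0 passed without or with the block, against 0.0186% and 1.73% of all tested genes. In either fit 0 had an unadjusted p under 0.05. Of all tested genes 4.61% were higher and 3.92% lower at that p without the block. With the block 7.67% were higher, and 329 of 5362 were lower. The groups did not overlap for Exosc10 and Toe1, which were higher, and for Snrpb2, Snrnp200 and Prpf3, which were lower, so 2 and 3 of 33, near the 6.68% and 7.81% of all tested genes. Of 5 proteins of the U2 particle, the largest difference was that of Snrpb2, a U2-specific RNA-binding protein, at -0.14 ± 0.067 (SE, limma, adjusted p = 0.637), with 6.54 ± 0.085 in siDicer and 6.68 ± 0.030 in siScr (SD, n = 3). Sf3b4, Sf3b1 and Sf3a3, parts of the complexes that hold the branch point, differed by 0.080, -0.054 and 0.062.

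Of 7 tri-snRNP proteins 3 were higher and 4 lower. Snrnp200, the helicase that unwinds U4 from U6, differed by -0.11 ± 0.061 and Prpf38b by 0.14 ± 0.088 (SE, limma, adjusted p = 0.689 and 0.734). The U4/U6 protein Prpf3 differed by -0.082 and the U5 protein Snrnp40 by 0.099. Of the Sm and LSm proteins, which form rings on snRNAs, Snrpb, Lsm10 and Snrpe differed by 0.060, -0.031 and -0.015. The minor spliceosome proteins Rnpc3 and Scnm1 differed by -0.13 and -0.040. No listed U1 protein was analysed here.

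Of 8 genes of snRNA transcription and 3' end cleavage 4 were higher and 4 lower, among them the Integrator subunits Ints3, Ints7 and Ints8 at 0.086, 0.095 and -0.10 and Snapc3, of the snRNA promoter-binding complex, at -0.044. Of 8 genes of export, assembly and end trimming 6 were higher and 2 lower. Exosc10, a nuclear exosome nuclease, had the largest difference at 0.13 ± 0.063 (SE, limma, adjusted p = 0.637), and Tgs1, which makes the trimethyl cap, was at -0.12 ± 0.075 (SE, limma, adjusted p = 0.732). The 3' exonuclease gene Toe1 and the 7SK-binding protein gene Larp7 differed by 0.058 and 0.068.

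Set beside other kinds of small RNA, the 111 distinct rows of small nucleolar RNA genes had a median difference of 0.061 with 66.7% higher, and the 129 rows of microRNA genes 0.0013 with 50.4% higher. Protein-coding genes had a median of -0.016. The tested genes with a mean signal of 8 or more had a median of 0.027 with 60.1% higher, against 0.13 and 41 of 41 for the small nuclear RNA rows at such signals. Those tested genes included the small nuclear RNA genes and counted a shared row once per gene. On other measures the small nucleolar RNA rows stood further from 0. At an unadjusted p under 0.05 by limma, 29 of 111 were higher, against 11 of 108 small nuclear RNA rows. The share of all tested genes was 4.61%. Without overlap 30 against 14 were higher, beside 6.68% of all tested genes. With passage as a block 15 small nucleolar RNA rows passed, against 1, beside 1.73% of all tested genes. The upper quartile of the small nucleolar RNA rows was 0.27 and their largest difference 0.84, against 0.15 and 0.38. These sets were not tested against each other.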

How the data were processed

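Total RNA of 6 Melan-a samples, 100 ng each, was run on Affymetrix Clariom D mouse arrays per the labels. The log2 signals per transcript cluster were deposited by the authors. The submitters' processing notes name Affymetrix Expression Console. Summarisation, normalisation and genome build were not stated, and coordinates were therefore left out. The log2 scale was read from the values (1.70 to 13.70). The number of arrays limits the precision.

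Of 16383 clusters, on chromosomes 1 to 4, 7716 had 1 gene, 269 several and 8398 none in the platform annotation; symbols were updated through RefSeq (GRCm38.p6), where all 7716 were found. The brightest row stood for a gene. Clusters with several genes were left out. Tests used limma 3.58.1 in R 4.3.3 (eBayes with a trend), two-sided, over 5362 genes, threshold 0.05; the fit was tested on simulated data. An exact test of 3 against 3 cannot go below 0.1. Members and lists were chosen with earlier results of these data known. Named were the 12 brightest rows, the 5 largest differences in each direction, every row that passed and up to 4 genes per list by p; other members were named after their values were seen.

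The labels tie each replicate number to a passage, so the numbers pair the samples. Deviations from the group means correlated at 0.42, 0.62 and 0.070 for passages 47, 54 and 56. Between arrays of different passages the correlations ran from -0.54 to 0.29. The highest of those, siDicer of passage 47 with siScr of passage 56, was above the matched value of passage 56, so the values bear out the pairing least there. Alternatives covered the block, normalisation, array weights, trend, level filter, row choice and each array left out.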

Additional observations from a re-analysis of the deposited data

How the results depend on the processing

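Of 5362 genes 1 passed without a block, 93 passed with passage as a replicate block, 14 with array weights, and 0 to 2 with 1 array left out. Leaving a passage out of the blocked fit, an alternative chosen after seeing the data, gave 3 genes (passage 47 out), 19 (54 out) and 153 (56 out). The count of small nuclear RNA rows that passed was 0 in every alternative other than the block, where it was 1, and the block without passage 56, where it was 4. The 4 were Gm25360, Gm25541, Gm22935 and Gm25323 (adjusted p = 0.0437, 0.0151, 0.0315 and 0.0347 by limma). The median difference of the rows, 0.10, ran from 0.042 (without siScr replicate 2) to 0.15 (without siDicer replicate 2) with 1 array left out, was 0.047 with array weights, and was 0.044 with dim genes kept in (151 of 227 rows higher). Centring arrays on their medians gave 0.11 and quantile normalisation 0.093, where the median of all tested genes was 0.0023 and -0.0028. Of 370 values of 22 named rows over 17 alternatives, 363 kept their direction and side of the threshold, 4 passed it and 3 reversed. Those 3 are Gm22043, which ran from -0.29 to 0.10 with 1 array left out (0.10 without siDicer replicate 1) and was 0.20 with the block but without passage 47, and Gm22092, which ran from -0.0053 (without siScr replicate 2) to 0.17. The cause was not tested. The splicing lists had 0 calls in every alternative. Background correction could not be varied, as scanner files were not used here.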

Other observations

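The cluster that the annotation assigns to both Dcaf12 and the snRNA gene Gm26049 was left out of the members.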
